A study of Mus musculus with 36 samples.

Results

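The comparison described here set Bhas 42 cells given the synthetic amorphous silica NM-203 at 1 µg/cm², the lowest of its 3 doses, against cells given water. Its members are 8 of the 36 samples of the series, namely the 4 arrays whose titles name NM-203 at 1 µg/cm² and the 4 arrays titled as water. The second water group, which the labels tie to the crystalline silica Min-U-Sil 5, was not counted among them. Bhas 42 is a clone of mouse BALB/c 3T3 fibroblasts into which the v-Ha-ras oncogene was introduced, so cells of every group, controls included, carry it. Cells were seeded at 1460 cells/cm², treated on day 4 with NM-203 or with water at 2%, and harvested on day 6, which gave 48 h with the particles, per the labels. Of the other groups, those used beside this comparison, with 4 arrays each, received the 2 and 5 µg/cm² doses of NM-203, 5 µg/cm² of DE, which is diatomaceous earth, or 0.1% DMSO, or were the Min-U-Sil 5 water control. The remaining groups received 20 µg/cm² of Min-U-Sil 5 or 0.05 µg/ml of the phorbol ester TPA, with 4 arrays each. They entered through the fit on all 36 arrays and the choice of probes tested. The design text mentions 4 independent experiments without saying which arrays belong to each, so the p-values below measure the spread between these samples only.

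Amorphous silica particles are taken up by fibroblasts, and particle exposure is studied in Bhas 42 cells because the line can form transformed foci after treatment with tumour promoters. In cells that reach confluence, entry into the cell cycle is restrained, and genes of the G2 and M phases are held low. Those genes are switched on late in the cycle by complexes of MuvB with B-MYB and FOXM1, through promoter elements known as the cell cycle genes homology region (CHR) and the CCAAT box, while S phase genes are mainly driven through E2F sites.

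Each sample was hybridised to a 1-colour Agilent array. Levels are given below as scaled signals, the spot intensity divided by the 75th percentile of the array, so that 1 is the level of that percentile. They compare arrays for 1 probe and not probes with each other. A gene was called when limma, fitted on all 36 arrays, gave an adjusted p under 0.05 over all 32492 gene names tested. Between 60.4% and 63.7% of probes were well above background on the NM-203 arrays, and between 60.9% and 67.2% on the water arrays, with 0 saturated probes. Log2 signals of the 2 groups correlated between arrays at 0.980 to 0.991, against 0.986 to 0.990 within NM-203 and 0.981 to 0.991 within water. Replicates 1, 2 and 3 of NM-203 shared slides with water arrays, whereas NM-203 replicate 4 was scanned on another day, on a slide with no array of this water group.

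The low dose moved few genes past the test. Of the 32492 gene names, 28 were called (0.0862%), 14 higher (0.0431%) and 14 lower (0.0431%) in NM-203 cells than in water. Of the 14 that rose 10 were genes of mitosis lists, and the 14 that fell included genes of cartilage-type and pericellular matrix, secreted factors, a calcium channel and a transcription factor. At an unadjusted p under 0.05, 1864 genes passed (5.74%), 874 higher (2.69%) and 990 lower (3.05%). In all 28 called genes the 4 NM-203 arrays lay entirely above or entirely below the 4 water arrays, a pattern that 5.65% of all genes showed, 2.16% above and 3.49% below. The 28 were chosen by a test on these same arrays, so their separation is a description and adds no support. The same holds where it is given for single called genes below. A fitted difference of 2-fold or more was found in 6 of the 28, among them Ackr4, for which the arrays give only a bound. The median log2 difference over all genes was -0.02. Each of the 14 called genes that had more than 1 tested probe had all of its probes on the same side of 0.

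The number of calls depended on the arrays used. With the 8 arrays of both groups fitted alone, limma called 0 genes, although 2673 had an unadjusted p under 0.05. Without NM-203 replicate 1, 2, 3 or 4 the full fit called 4, 2, 25 and 4 genes, and without water replicate 1, 2, 3 or 4 it called 101, 18, 2 and 2. Other settings gave more calls: 100 with slide as a fixed block (77 higher and 23 lower), 103 with slide as a random block (70 higher and 33 lower) and 292 with array weights (189 higher and 103 lower). Msln and Tmem158 were the 2 genes called in all 8 fits that left out 1 replicate, with adjusted p of at most 0.0100 and 0.00811 in limma. Centring arrays on the median gene left 1 call, 0 higher and 1 lower, and normexp with quantile normalization gave 38, of which 14 were higher and 24 lower. With the 4 DMSO arrays in place of water, 26 of the 28 stayed called, the exceptions being Sparcl1 and the unnamed transcript ENSMUST00000120916. The 26 include Ackr4, which was well above background on 0 NM-203 arrays and 0 DMSO arrays, so that call compares signals near background.

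**Figure D1:**
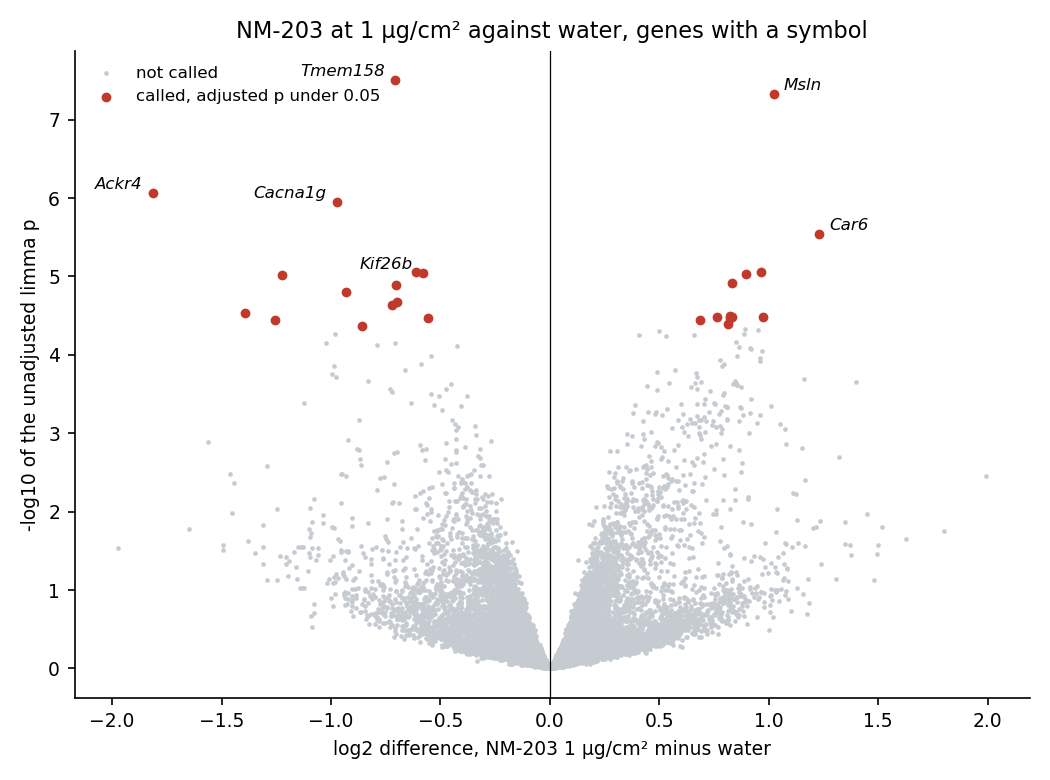
Log2 difference of NM-203 at 1 µg/cm² minus water (x axis) against -log10 of the unadjusted limma p (y axis) for the 17868 gene names with a symbol. Red points are the 26 called genes with a symbol, 12 to the right of 0 and 14 to the left, with Msln and Tmem158 highest on the page.

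Mitotic genes were 10 of the 14 genes called higher. Of the 12 called genes with a symbol that were higher in NM-203 cells, 10 belonged to the mitosis lists: Aspm, Troap, Spag5, Plk1, Kif4, Nek2, Kif23, Kif20b, Hmmr and Tpx2. The 5 mitosis lists together held 94 tested genes, of which 10 were called higher and 0 lower, against 0.0431% of all genes called higher. Of the 94, 93 had a positive log2 difference, with Anapc11 at -0.08 as the exception, whereas 46.7% of all genes did. Their part among the higher calls varied with the setting, at 32 of 77 with slide as a fixed block, 60 of 189 with array weights, 29 of 78 without water replicate 1, 45 of 166 with DMSO as the control, 4 of 9 with quantile normalization, 3 of 7 with the deposited value table and 0 of 2 without a filter on dim probes. In 58 of the 94 every NM-203 array lay above every water array (2.16% of all genes), and 79 were higher at an unadjusted p under 0.05 (2.69% of all genes). The median log2 difference was 0.74 over the 94 genes and -0.02 over all genes. These lists were chosen with results of these samples known, so their counts are a description.

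Plk1 encodes the kinase that drives centrosome maturation, spindle assembly and mitotic exit. Its scaled signal was 6.73, 5.04, 4.21 and 4.41 on the NM-203 arrays, against 3.46, 3.08, 2.27 and 2.57 on the water arrays. It was thus higher on every NM-203 array than on any water array, by 1.78-fold (log2 difference 0.83 ± 0.17, SE, limma adjusted p = 0.0448). Nek2, a centrosome kinase that separates the centrosomes before mitosis, had 0.470, 0.333, 0.357 and 0.292 in NM-203 cells, against 0.243, 0.200, 0.167 and 0.204 in water. The fold was close to that of Plk1, at 1.77, with a limma adjusted p of 0.0448. The mitotic cyclin Ccnb2 differed more, by 1.94-fold without overlap of the groups, but its adjusted p in limma was 0.0503, just outside the threshold. In the list of mitotic entry kinases and phosphatases, 2 of 18 genes were called higher (0.0431% of all genes). All 18 differences were positive, between 0.17 for Wee1, the kinase that restrains CDK1, and 0.95 for Ccnb2.

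Spindle and cytokinesis genes held 5 of the calls. Aspm, which focuses the spindle poles, had 1.41, 0.890, 0.935 and 0.868 in NM-203 cells, against 0.646, 0.609, 0.392 and 0.444 in water (1.97-fold). Spag5, encoding the spindle protein astrin, had 0.838, 0.646, 0.570 and 0.588, against 0.420, 0.388, 0.295 and 0.316 in water (1.86-fold, limma adjusted p = 0.0297). Neither gene showed any overlap between the groups, and replicate 1 was the highest NM-203 array for each. Hmmr, a spindle-associated hyaluronan receptor, had 1.77, 1.36, 1.30 and 1.31 in NM-203 cells, against 1.06, 0.884, 0.734 and 0.719 in water. Tpx2, the activator of Aurora A on the spindle, was 1.61-fold higher, and Troap, a microtubule-associated spindle protein, 1.95-fold higher. In the list of spindle, cytokinesis and condensin genes 5 of 26 were called higher (0.0431% of all genes), and 26 of 26 differences were positive. Of these, 21 lay above every water array (2.16% of all genes), and the median was 0.73. The proliferation marker Mki67 was 1.68-fold higher without overlap (limma adjusted p = 0.127), and Top2a was 1.66-fold higher with overlapping arrays (adjusted p = 0.139), so neither was called.

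Among the 12 mitotic kinesins, 3 were called higher (0.0431% of all genes) and 12 were positive, with a median of 0.82. Kif23, the central spindle kinesin of cytokinesis, had 1.02, 0.784, 0.743 and 0.676 in NM-203 cells, against 0.635, 0.437, 0.376 and 0.392 in water (1.77-fold). Kif4, a chromosome-bound kinesin, had 0.390, 0.314, 0.277 and 0.277, against 0.242, 0.158, 0.158 and 0.155 in water (1.78-fold). Water replicate 1 stood above the other 3 water arrays for Kif4 and still lay below the lowest NM-203 array. Kif20b, a kinesin of late cytokinesis, was 1.76-fold higher, with 0.781 to 1.06 in NM-203 cells and 0.356 to 0.674 in water.

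In the kinetochore and spindle checkpoint list 0 of 26 genes were called, although all 26 differences were positive. Of these, 14 lay above every water array (2.16% of all genes). An unadjusted p under 0.05 was found in 22, all higher (2.69% of all genes). Ndc80, a microtubule-binding kinetochore subunit, was highest at 1.05 ± 0.28 (adjusted p = 0.155 in limma), and the kinetochore protein Zwint was lowest at 0.03 ± 0.07. In the list of the anaphase promoting complex and its substrates 0 of 12 were called, 11 were positive and the median was 0.55. Its coactivator Cdc20 had 9.58, 7.19, 5.81 and 5.15 in NM-203 cells, against 5.40, 4.35, 2.99 and 3.43 in water, so 1 NM-203 array lay below the highest water array.

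The size of the mitotic difference varied among arrays within each group. Relative to the mean of the water arrays, the median log2 deviation over the 94 genes was 1.18, 0.67, 0.52 and 0.47 on NM-203 replicates 1 to 4, against 0.34, 0.07, -0.26 and -0.13 on water replicates 1 to 4. Replicate 1 was the highest array of each group, and these 2 arrays lay on the same slide. The groups did not overlap, and the gap between the lowest NM-203 array and the highest water array was smaller than the range within either group. Within slides the median difference was 0.67, 0.98 and 0.94 on slides 1, 2 and 3. The number of these genes called higher was 0 without NM-203 replicate 1, 2 or 4, 5 without NM-203 replicate 3, 29, 1, 0 and 0 without water replicates 1 to 4, and 45 with DMSO as the control. In bulk RNA, more cells in mitosis and more of these transcripts per cell cannot be told apart.

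**Figure D2:**
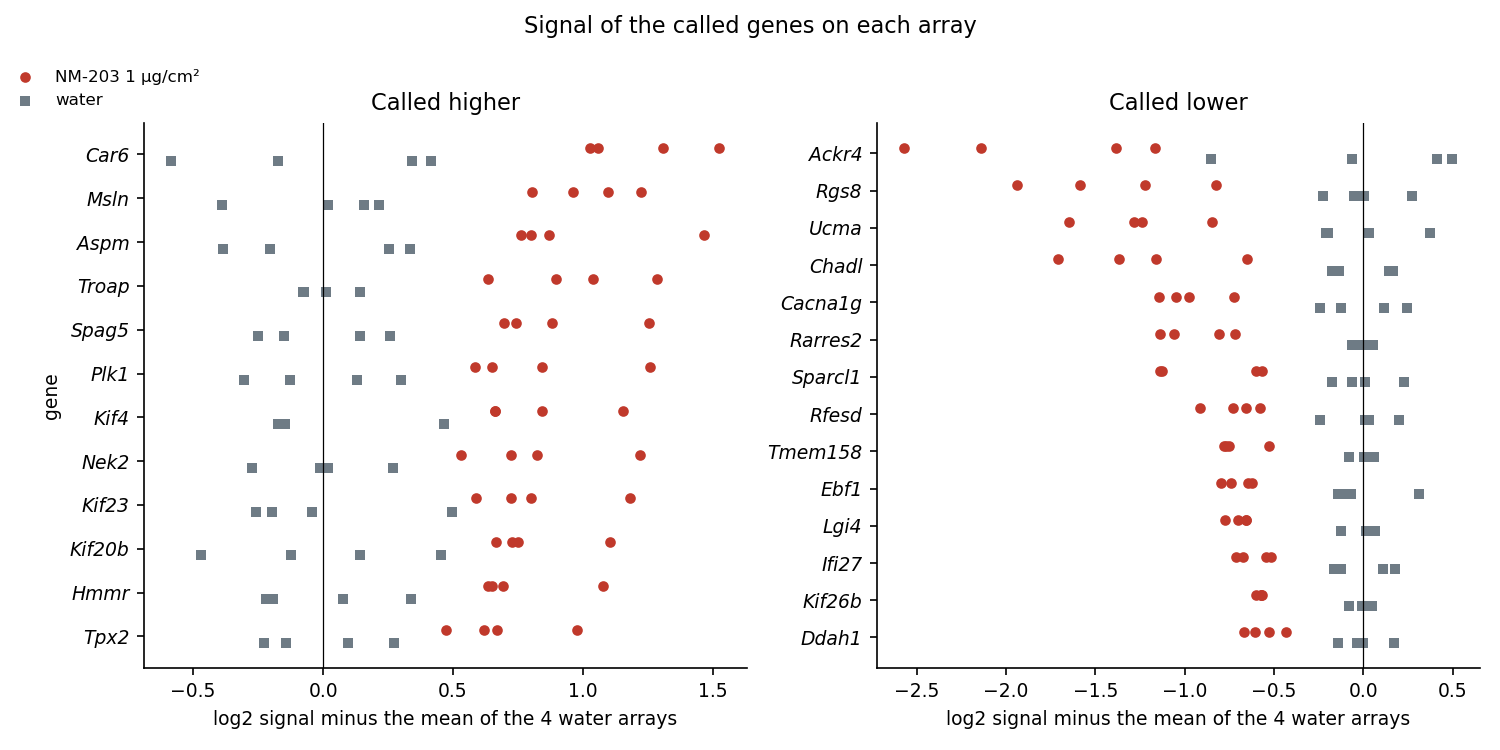
Log2 signal minus the mean of the 4 water arrays (x axis) for the 26 called genes with a symbol (rows), 12 called higher on the left and 14 called lower on the right. Red circles are the 4 NM-203 arrays and grey squares the 4 water arrays; the 2 kinds of symbol do not overlap in any row, and Ackr4 had 0 NM-203 arrays well above background.

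Promoter sequences were read from RefSeq (build GRCm38.p6) for the genes that rose, to show the letters of the elements named above. The following stretches run from 100 bases before to 50 bases from the annotated start, on the strand of the gene, for the 6 genes called higher whose 300-base window held both CCAAT and TTTGAA. Capitals mark CCAAT and TTTGAA, or the same letters read on the opposite strand.
Aspm, chr1:139454673-139454822, plus strand: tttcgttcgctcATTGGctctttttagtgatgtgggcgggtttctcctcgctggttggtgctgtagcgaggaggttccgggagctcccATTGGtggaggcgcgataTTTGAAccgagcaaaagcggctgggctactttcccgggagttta
Spag5, chr11:78301491-78301640, plus strand: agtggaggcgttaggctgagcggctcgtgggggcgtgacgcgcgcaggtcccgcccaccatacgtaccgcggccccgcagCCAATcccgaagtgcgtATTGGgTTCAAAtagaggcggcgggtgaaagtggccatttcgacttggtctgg
Plk1, chr7:122159335-122159484, plus strand: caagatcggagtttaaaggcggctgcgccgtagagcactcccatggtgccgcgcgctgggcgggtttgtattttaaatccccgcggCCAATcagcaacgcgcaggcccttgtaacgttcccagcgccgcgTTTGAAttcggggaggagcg
Kif4, chrX:100625965-100626114, plus strand: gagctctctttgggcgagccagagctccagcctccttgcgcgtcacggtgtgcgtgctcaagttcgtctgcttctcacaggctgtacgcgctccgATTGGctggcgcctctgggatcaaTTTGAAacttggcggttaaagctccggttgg
Kif23, chr9:61946750-61946899, minus strand: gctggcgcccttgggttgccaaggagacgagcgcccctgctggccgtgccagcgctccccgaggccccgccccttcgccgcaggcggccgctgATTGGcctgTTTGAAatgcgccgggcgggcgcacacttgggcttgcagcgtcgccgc
Hmmr, chr11:40733388-40733537, minus strand: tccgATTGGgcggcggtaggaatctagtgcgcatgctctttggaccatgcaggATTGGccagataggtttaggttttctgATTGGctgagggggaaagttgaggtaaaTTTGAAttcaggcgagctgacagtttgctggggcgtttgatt

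In the 6 sequences the CHR letters began 2 to 30 bases after the start, counted from 0, and at least 1 CCAAT or ATTGG began before them. Windows of 250 bases before to 50 bases from the start were searched on both strands for CCAAT, for the CHR letters TTTGAA or TTCGAA, and for the E2F letters TTCCCGC or TTGGCGC. The last of these can overlap an ATTGG. A gene counted when any of its windows held the letters. Of the 12 genes with a symbol that rose, 10 had a window, all but Msln and Tpx2, and 9 of the 10 held CCAAT (90%) and 7 the CHR letters (70%). Among the 14130 tested genes with a window the shares were 42.6% and 18.4%. Over the mitosis lists, 57 of 78 genes with a window held CCAAT (73.1%), 55 held the CHR letters (70.5%) and 16 the E2F letters (20.5%). The replication and S phase list differed, with the CHR letters in 6 of 34 genes with a window (17.6%) and the E2F letters in 20 (58.8%, against 11.5% of all tested genes with a window). CHR letters in the 40 bases from the start, a span chosen after their positions were seen, occurred in 26 of the 78 mitosis genes (33.3%). Of all tested genes with a window 2.23% held them there. Of the genes that fell, 8 had a window, and 4 of those held CCAAT (50%) and 2 the CHR letters (25%). Kif26b, not printed here, was the 1 that held both. A match describes the letters only and is not a measured binding site.

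**Figure D3:**
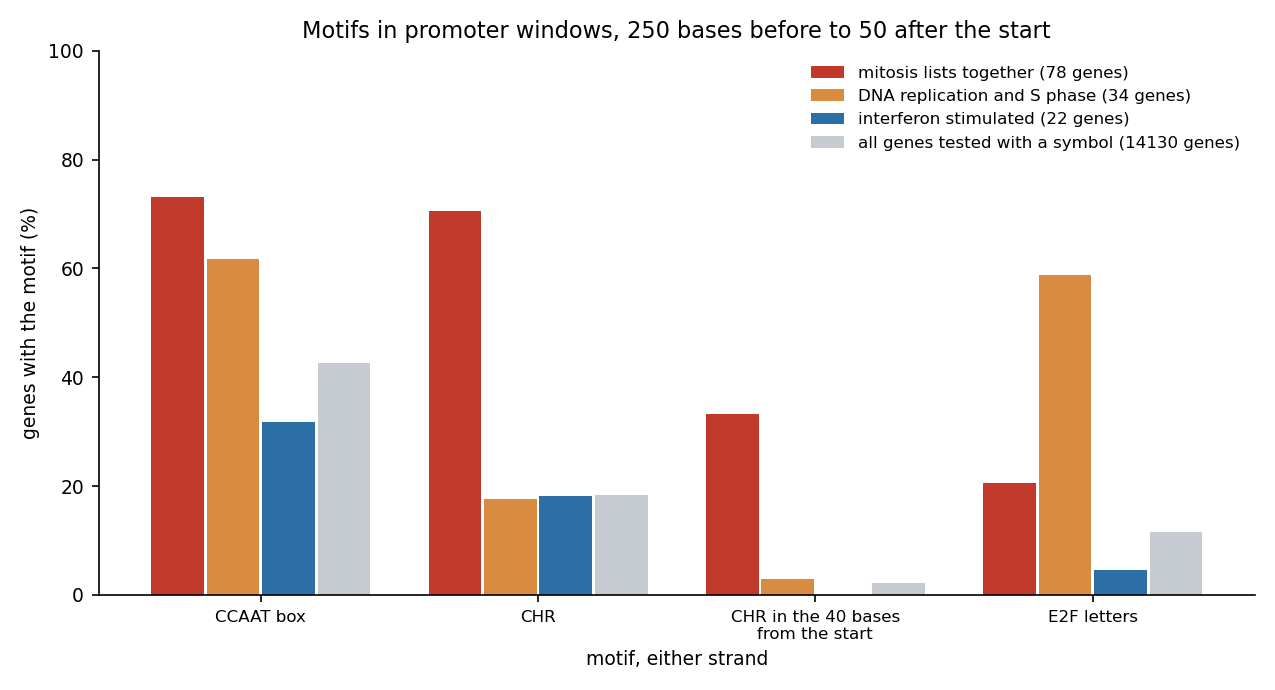
Share of genes (y axis, percent) whose promoter window held each set of letters on either strand (x axis), for the mitosis lists, the replication and S phase list, the interferon-stimulated list and all tested genes with a symbol. Of genes with a window, 70.5% in the mitosis lists and 18.4% of all tested held the CHR letters, and 58.8% in the S phase list held the E2F letters.

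Genes of DNA replication and of recombination repair lay on the same side with smaller differences. In the replication and S phase list 0 of 39 genes were called and 39 were positive. Of these, 15 lay above every water array (2.16% of all genes), and the median was 0.31. Mcm10, a replication initiation factor, had 1.07, 0.750, 0.689 and 0.738 in NM-203 cells, against 0.624, 0.569, 0.439 and 0.517 in water (limma adjusted p = 0.220). In the list of homologous recombination and Fanconi repair genes 0 of 17 were called, 17 were positive, and the median was 0.53. Rad54l, a DNA translocase of recombination, came nearest to the threshold, with 0.252, 0.194, 0.215 and 0.210 in NM-203 cells, against 0.146, 0.129, 0.0971 and 0.116 in water (limma adjusted p = 0.0568). Transcription regulators of the cycle had a median of 0.11 with 0 of 26 called, 23 positive and 3 negative. Of the 26, 7 lay above every water array (2.16% of all genes). The array medians were 0.09 to 0.18 in NM-203 cells and -0.08 to 0.05 in water. E2f8 was highest at 0.6. The mean scaled signal of Foxm1 was 1.55 in NM-203 cells and 1.08 in water. For Mybl2, which encodes B-MYB, it was 1.1 in NM-203 cells and 0.852 in water. The 3 negatives included the D-type cyclin Ccnd1 at -0.28 ± 0.11 and the inhibitor Cdkn1a, which encodes p21, at -0.02 ± 0.17.

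The other 2 named genes that rose do not act in mitosis. Msln encodes mesothelin, a cell-surface glycoprotein of mesothelium and of several tumours. It had 0.502, 0.551, 0.450 and 0.601 in NM-203 cells, against 0.287, 0.299, 0.197 and 0.261 in water, a 2.03-fold difference (1.02 ± 0.14 on the log2 scale, limma adjusted p = 0.000762). Car6, a secreted carbonic anhydrase, had 0.184, 0.213, 0.151 and 0.154 in NM-203 cells, against 0.0989, 0.0940, 0.0657 and 0.0495 in water (2.34-fold, limma adjusted p = 0.0186). For both genes the lowest NM-203 array lay well above the highest water array. Of the 9 carbonic anhydrases listed, 4 were measured well enough to test, and Car6 was the only one called. The 2 remaining risers have no symbol in the files, ENSMUST00000120916 (1.63-fold) and a noncoding-type probe on chromosome 17 (1.91-fold).

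Among the genes that fell, Tmem158, a membrane protein induced by Ras signalling, was one with little spread within either group. It had 2.11, 2.15, 2.50 and 2.12 in NM-203 cells, against 3.42, 3.63, 3.64 and 3.77 in water. It was 1.63-fold lower (-0.71 ± 0.10, limma adjusted p = 0.000762), with no NM-203 array above 2.50 and no water array below 3.42. Kif26b, an atypical kinesin that does not serve mitosis, had 1.38, 1.37, 1.38 and 1.35, against 2.04, 1.93, 2.12 and 2.10 in water (1.49-fold lower). Cacna1g, the T-type calcium channel subunit Cav3.1, had 0.767, 0.683, 0.914 and 0.728, against 1.28, 1.38, 1.79 and 1.64 in water (1.96-fold lower, limma adjusted p = 0.00924). Ebf1, a transcription factor of mesenchymal and B cell lineages, had 1.17, 1.31, 1.29 and 1.21, against 1.89, 1.83, 2.51 and 1.93 in water (1.63-fold lower). In each of these 4 genes the highest NM-203 array lay below the lowest water array.

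Several of the falls were matrix or secreted products. Chadl, a leucine-rich repeat protein that binds collagen, had 1.35, 1.72, 2.82 and 1.98 in NM-203 cells, against 3.92, 4.04, 4.97 and 4.89 in water (2.33-fold lower), a wide spread within NM-203 without overlap. Sparcl1, a matricellular protein related to SPARC, had 4.04, 4.01, 5.84 and 5.97, against 7.81, 10.3, 8.47 and 8.90 in water (1.81-fold lower, limma adjusted p = 0.0494). With DMSO as its control the adjusted p of Sparcl1 was 0.390. Ucma, a cartilage matrix protein, was dim, at 0.0282, 0.0291, 0.0381 and 0.0219 in NM-203 cells, against 0.0890, 0.0594, 0.0702 and 0.0598 in water (2.38-fold lower). Rarres2, which encodes the chemoattractant chemerin, had 0.193, 0.230, 0.245 and 0.183, against 0.385, 0.417, 0.410 and 0.398 in water (1.91-fold lower). Lgi4, a secreted protein needed for myelination by Schwann cells, was 1.62-fold lower, with 0.444 to 0.482 in NM-203 cells and 0.698 to 0.796 in water.

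The list of fibrillar collagen and matrix genes leaned the same way as these. Of its 31 tested members 0 were called higher and 2 lower, Ucma and Sparcl1 (0.0431% of all genes in each direction). The differences were negative in 27, and in 12 every NM-203 array lay below every water array, which 3.49% of all genes did. The array medians of the list were -0.15, -0.24, -0.26 and -0.19 on NM-203 replicates 1 to 4, against -0.02, 0.02, 0.02 and -0.03 on water replicates 1 to 4. The list median was -0.20, with the groups apart. It was not the only list to lie below all water arrays. Over 10 scavenger and particle uptake receptors the median was -0.21, with array medians of -0.34 to -0.12 in NM-203 cells and -0.11 to 0.12 in water. Over 19 metalloproteinase and plasminogen genes it was -0.06, with -0.21 to -0.07 in NM-203 cells and -0.03 to 0.06 in water, and neither list held a called gene. Postn, the matricellular protein periostin, had 7.23, 9.38, 9.27 and 6.09 in NM-203 cells, against 13.4, 15.4, 19.2 and 15.2 in water, without overlap (limma adjusted p = 0.0901). Lum, the small proteoglycan lumican, was also apart, with 0.549 to 0.897 in NM-203 cells and 1.00 to 1.38 in water (adjusted p = 0.0579 in limma). Col1a2 had the highest value of the list, at 0.17 ± 0.17, with overlapping arrays.

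The remaining falls had diverse roles. Ifi27, an interferon-inducible gene, had 10.9, 11.2, 12.2 and 12.5 in NM-203 cells, against 16.4, 16.0, 20.2 and 19.2 in water (1.53-fold lower, limma adjusted p = 0.0297). Ddah1, the enzyme that degrades asymmetric dimethylarginine, had 1.14, 1.28, 1.09 and 1.20, against 1.69, 1.57, 1.95 and 1.73 in water (1.47-fold lower). Rgs8, a regulator of G protein signalling, had 0.0445, 0.0345, 0.0585 and 0.0270, against 0.0886, 0.100, 0.125 and 0.104 in water (2.63-fold lower). No array of these 3 genes crossed into the other group. Rfesd, a Rieske iron-sulphur domain protein, was 1.65-fold lower, with 0.0728 to 0.0921 in NM-203 cells and 0.116 to 0.158 in water. Ackr4, a scavenging receptor for chemokines, was well above background on 0 NM-203 arrays and on 3 water arrays. It was therefore at least 1.24-fold lower (limma adjusted p = 0.00924), the bound being set by the dimmest probes well above background. It was well above background on 0 arrays at 2 or 5 µg/cm², with DE or with DMSO, and on 1 Min-U-Sil 5 water array. Of these groups only water, where it was higher, met the filter on dim probes. Its p-value rests on NM-203 signals not well above background, so its call is a description only.

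Interferon-stimulated genes, other than Ifi27, lay on the opposite side. Of the 32 listed, 28 were tested and 0 were called, while 28 differences were positive (46.7% of all genes). Of these, 9 lay above every water array (2.16% of all genes), and 24 were higher at an unadjusted p under 0.05 (2.69% of all genes). The median was 0.46. Oas1a, an antiviral oligoadenylate synthetase, had 36.7, 29.3, 28.7 and 27.9 in NM-203 cells, against 25.3, 24.9, 13.1 and 16.1 in water (limma adjusted p = 0.103). Its family holds near-identical copies, so probes may not separate them. Irf7, the transcription factor that amplifies interferon production, had 18.6, 15.1, 17.5 and 19.4, against 14.1, 15.3, 7.87 and 8.28 in water, where replicate 2 lay above the lowest NM-203 array. The water arrays fell into 2 levels for this list, with medians of 0.27 and 0.31 on replicates 1 and 2 and -0.31 and -0.26 on replicates 3 and 4, against 0.35 to 0.55 on the NM-203 arrays. Within slides, the median difference was 0.74, 0.19 and 0.72 on slides 1, 2 and 3, slide 2 being the one with water replicates 1 and 2. Against the Min-U-Sil 5 water arrays the list median was -0.07.

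The 3 tested proliferin genes, placental-lactogen relatives that growth stimuli induce in 3T3 cells, were all above every water array (2.16% of all genes), and 0 were called. Prl2c5 had 5.10, 4.54, 4.39 and 4.88 in NM-203 cells, against 3.30, 2.74, 3.07 and 3.53 in water (limma adjusted p = 0.151). These genes are near-identical copies and may share signal. In the cholesterol synthesis list 23 of 24 differences were positive, with a median of 0.25, but 0 genes were called and 0 lay above every water array.

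Stress, inflammatory and Ras pathway lists held no called gene, and their medians lay closer to 0. The median was 0.06 for 24 NRF2 antioxidant genes, -0.07 for 4 genes of metal handling, 0.04 for 16 heat shock chaperones, -0.04 for 23 genes of the unfolded protein response and 0.01 for 21 p53 targets. It was 0.02 for 20 NF-kB targets, 0.10 for 12 inflammasome genes, -0.05 for 21 AP-1 and immediate early genes, -0.13 for 15 ERK feedback genes and -0.05 for 16 Ras and Raf genes. Hmox1, the haem oxygenase induced by oxidative stress, had 14.6, 14.3, 18.9 and 19.5 in NM-203 cells, against 18.2, 17.1, 14.3 and 17.7 in water (-0.01 ± 0.16). Saa3, an acute phase protein, stood out in the NF-kB list with 0.214, 0.139, 0.139 and 0.197 in NM-203 cells, against 0.0994, 0.0525, 0.0857 and 0.0730 in water. The Saa3 groups did not overlap, and its adjusted p was 0.0985 in limma. Lysosomal genes had a median of 0.07 with 0 of 34 called, and the lysosomal membrane protein Scarb2 came nearest, with 3.04 to 3.40 in NM-203 cells and 2.18 to 2.70 in water (limma adjusted p = 0.0503). The median was -0.12 over 17 contractile genes, -0.02 over 20 TGF-beta and BMP genes, -0.14 over 23 growth factors and receptors, and 0.05 over 22 glycolysis genes, with 0 called in each.

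**Figure D4:**
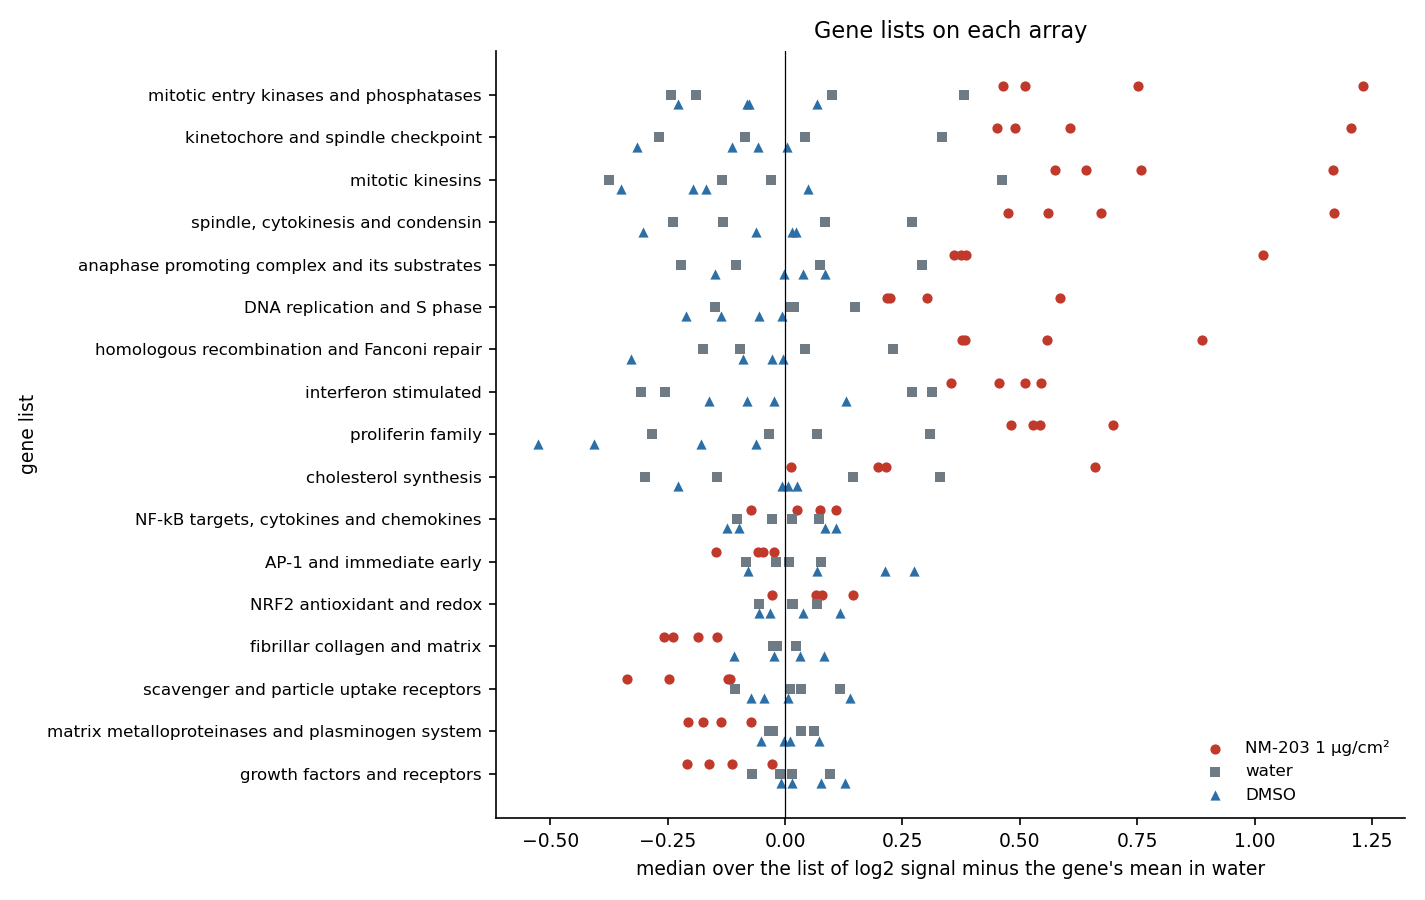
Median over each gene list (rows) of the log2 signal minus the mean of the 4 water arrays (x axis), 1 point per array. Red circles are NM-203 at 1 µg/cm², grey squares water and blue triangles DMSO; the mitosis lists lie to the right of all water arrays and the fibrillar collagen and matrix, scavenger receptor and metalloproteinase lists to the left, while the NF-kB, AP-1 and NRF2 lists overlap with water.

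The cells carried the fibroblast markers of their label. All 12 fibroblast markers were tested, 11 of them were well above background on all 8 arrays, and 0 were called, with a median of -0.15 and array medians of -0.23 to -0.07 in NM-203 cells and -0.06 to 0.06 in water. Col1a1 had 79.3 to 89.2 in NM-203 cells and 90.9 to 97.2 in water, and was not called. Ptprc, Adgre1, Fcgr1 and Mrc1 of the macrophage list, Epcam and Cdh1 of the epithelial list, Tek of the endothelial list, and Adipoq and Cebpa of the adipocyte list were at or near background on all 8 arrays. Other markers of these lists were well above background on all 8 arrays, namely Csf1r, Cd68, Aif1, Lyz2 and Itgam (5 of 10 macrophage markers), Krt8, Krt5 and Krt14 (3 of 6 epithelial), Pecam1, Cdh5 and Vwf (3 of 5 endothelial), and 2 of 6 adipocyte and 2 of 5 skeletal muscle markers. Of the macrophage markers 6 were tested, 5 of them with a positive difference, and their median was 0.31, with array medians of 0.01 to 0.40 in NM-203 cells and -0.21 to 0.11 in water. Adgre1, the highest of these at 0.71, was well above background on 0 NM-203 and 0 water arrays, so its difference lies near background. The summed scaled signal, which adds different probes and so compares only the groups, was 17.8 to 23.7 in NM-203 cells and 18.8 to 27.5 in water for macrophage markers, and 0.408 to 0.519 in NM-203 cells and 0.400 to 0.520 in water for epithelial markers. For endothelial markers it was 0.316 to 0.348 in NM-203 cells and 0.316 to 0.395 in water. The part of other cell types in the differences was not tested. No marker of macrophages, epithelium, endothelium, adipocytes or skeletal muscle was called.

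The 2, 5 µg/cm² and DE groups were set against the same 4 water arrays, so their differences from water share those arrays with the values above and are given side by side. In the same fit, 25% of genes were called at 2 µg/cm², 33.1% at 5 µg/cm² and 1.01% with DE. All 4 arrays at 2 µg/cm² were scanned on day 2 and all 4 water arrays on day 1, as were 3 of the 4 arrays each at 1 and 5 µg/cm². The 2 µg/cm² dose and scan day therefore cannot be told apart within that comparison. With scan day as a block, which rests on the groups that span both days, 1716 genes were called at 2 µg/cm² (5.28%) and 10446 at 5 µg/cm² (32.1%). Those groups are 1 and 5 µg/cm², with 1 array each on day 2. The part of lost precision in the lower count at 2 µg/cm² was not tested. Plk1 differed by 0.83, 2.01 and 2.42, Car6 by 1.23, 2.44 and 4.19, Cacna1g by -0.97, -1.47 and -4.15, and Sparcl1 by -0.86, -1.22 and -4.53 over the same doses. Ddah1 did not keep its direction, with -0.56, -0.73 and 0.17. The riser ENSMUST00000120916 did not either, with mean scaled signals of 0.344, 0.203 and 0.226, against 0.211 in water. Ucma was not well above background at 2 or 5 µg/cm², and was at least 3.09-fold and 2.54-fold lower there than in water. The mitosis lists had medians of 0.74, 1.59 and 1.98, the replication list 0.31, 0.93 and 1.86, the matrix list -0.20, -0.33 and -1.24, and the interferon-stimulated list 0.46, 0.92 and 1.14. Of the 94 mitosis genes 89 were called higher at 2 µg/cm² (16.2% of all genes) and 93 at 5 µg/cm² (14%). With scan day as a block the count at 2 µg/cm² was 83 (3.26% of all genes) and the median 1.77. Of the 31 matrix genes 14 were called lower at 2 µg/cm² (8.85% of all genes) and 23 at 5 µg/cm² (19.1%). With scan day as a block 7 were called lower at 2 µg/cm², where 658 of all 32492 genes were.

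The doses were also compared with each other directly, in the same fit, where the water arrays enter only through the estimate of the spread and the filter on dim probes. Between 2 and 1 µg/cm², 4922 genes were called (15.1%), and between 5 and 1 µg/cm², 9138 (28.1%). The first of these counts was 780 with scan day as a block, 1406 with slide as a fixed block and 1506 with arrays centred on the median gene. Of the arrays compared, all 4 at 2 µg/cm² and 1 of 4 at 1 µg/cm² were scanned on day 2. Msln did not pass at 5 against 1 µg/cm², at 0.09 ± 0.14, after 1.91 ± 0.14 above water at 2 µg/cm² and 1.11 ± 0.14 at 5 µg/cm². In the mitosis lists 75 of 94 genes were called higher at 2 than at 1 µg/cm², and 91 of 94 at 5 than at 1 µg/cm² (11% and 12.6% of all genes). With scan day as a block these were 53 (1.51% of all genes) and 91 (12.8%), and with slide as a block 67 (2.89%) and 92 (13.4%). For Plk1 the direct difference was 1.17 at 2 and 1.58 at 5 µg/cm², both called in limma.

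**Figure D5:**
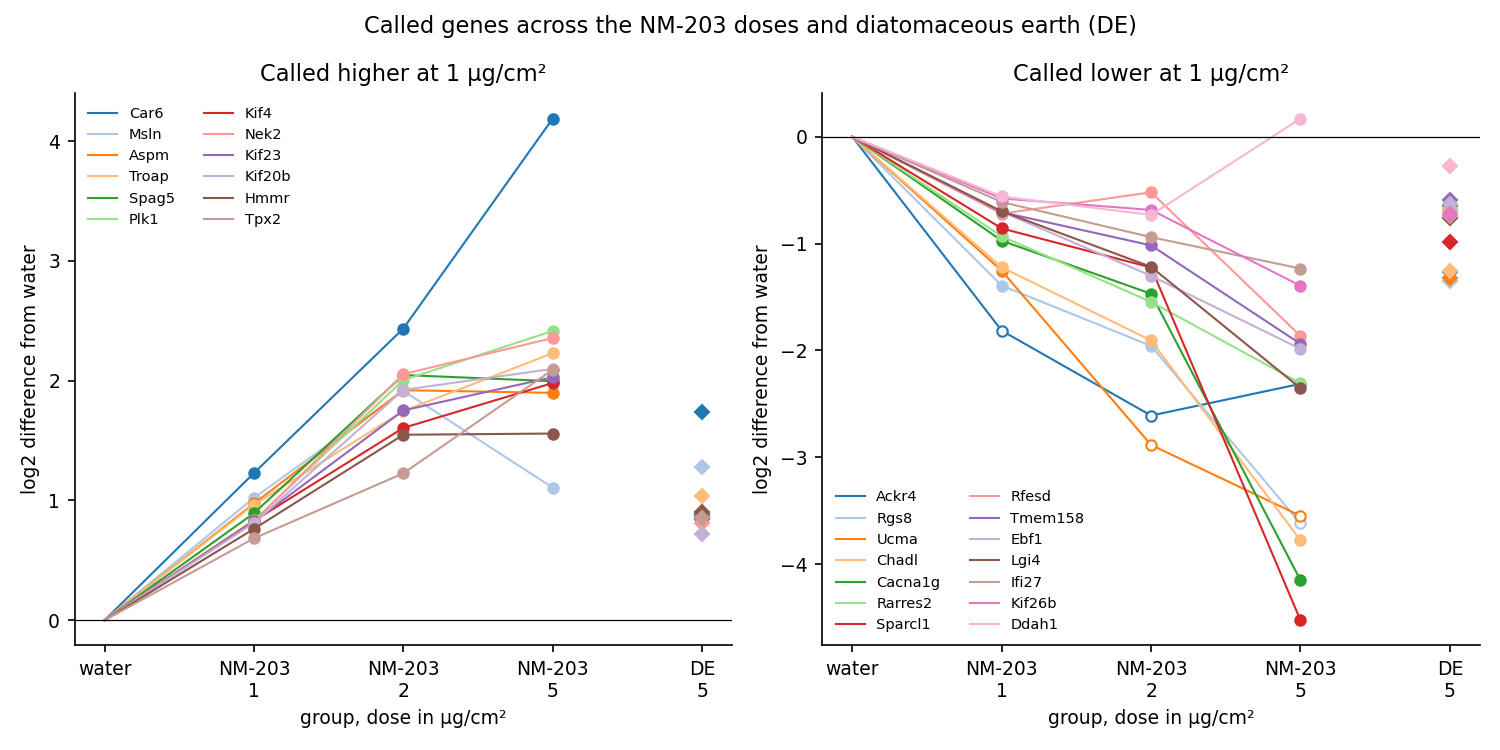
Log2 difference from water (y axis) of the 26 called genes with a symbol in water, NM-203 at 1, 2 and 5 µg/cm² and DE at 5 µg/cm² (x axis), with genes called higher on the left and lower on the right. Open symbols mark groups in which 0 of 4 arrays had the probe well above background; Car6 reaches 4.19 at 5 µg/cm², and Ddah1 is the gene on the right that lies above 0 there.

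Diatomaceous earth, a fossil amorphous silica from another source, was given at 5 µg/cm² only, so mass doses differ. The differences from water share the 4 water arrays that entered the choice of the 28 genes, so DE values are given beside those of NM-203 with no count of shared calls. Plk1 differed from water by 0.85 ± 0.17 with DE and 0.83 ± 0.17 with NM-203 at 1 µg/cm² (SE). Msln differed by 1.28 ± 0.14 with DE and 1.02 ± 0.14 with NM-203, and Cacna1g by -0.65 ± 0.16 with DE and -0.97 ± 0.16 with NM-203. Ddah1 differed by -0.28 ± 0.11 with DE, where it was not called, and by -0.56 ± 0.11 with NM-203. The mitosis lists had a median of 0.71 with DE and 0.74 with NM-203. In the direct contrast of DE with NM-203 at 1 µg/cm², 1 gene of 32492 was called (0.00308%). It was Saa3, whose mean scaled signal was 0.814 with DE and 0.169 with NM-203 at 1 µg/cm², 4.82-fold higher with DE (2.27 ± 0.27, limma adjusted p = 0.000117). The absence of other calls does not show that the 2 treatments acted alike.

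The control groups set the scale of these differences. DMSO against water gave 0 calls (0%), and the mitosis lists had a median of -0.10 there. The Min-U-Sil 5 water group, also water-treated, differed from this water group in 7946 genes (24.5%), and its mitosis lists lay at 0.36 and its interferon-stimulated list at 0.49. Against the Min-U-Sil 5 water arrays, Ddah1 and Kif20b turned sign, at 0.075 and -0.05. In that comparison 1603 genes were called higher and 5561 lower, 21 mitosis genes among the higher, and the median of the mitosis lists was 0.28. All 4 Min-U-Sil 5 water arrays were scanned on day 2, on slides 4 and 5, with 63.6% to 76.2% of probes well above background, whereas the 4 arrays of this water group were scanned on day 1. The part of slide and scan day in the difference between the 2 water groups was not tested.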

How the data were processed

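RNA of 36 samples was hybridised to 1-colour Agilent arrays of 62976 spots. Per the file headers, the authors' intensity values came from Agilent Feature Extraction 11.0.1.1, with background subtracted and no normalization between arrays. The deposited value table, in log2 units by comparison with these intensities (r of 0.999 to 1.000 per array over the 8 arrays), served as an alternative. From the processed intensity, log2 was taken after division by the 75th percentile of non-control spots, outlier spots were left out and spots of 1 probe were averaged. Probes well above background on 3 of 4 arrays in any of the 9 groups were kept, 40679 in all, and the brightest stood for a gene. Limma 3.58.1 (R 4.3.3) was fitted with 1 mean per group (27 residual degrees of freedom) and Benjamini-Hochberg adjustment at 0.05, and was tested on simulated data. Adjusted p-values come from it. Precision is limited by the 4 arrays per group. Gene symbols came from the files and RefSeq, and 23611 probes had none.

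Genes, lists and tests were chosen with earlier results of these data known. Named were all called genes, the 10 nearest uncalled, the 10 with the largest uncalled change at an unadjusted p under 0.05, and in each list the called members, up to 4 with the smallest p and both extremes, plus fixed reference genes. Alternatives covered normalization, filter, probe choice, slide, scan day, replicate number, control group and each replicate left out. Figures used Python 3.11.15 and matplotlib 3.10.9.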

Additional observations from a re-analysis of the deposited data

Results flagged for a closer look

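In 21 of 422 sets of 4 replicate values (4.98%) 1 array stood apart from the other 3 by Dixon's ratio, close to the 1 in 20 that chance gives. Of the 21, 5 were NM-203 replicate 1 and 6 were water replicate 3. NM-203 replicate 1 was high for Aspm (1.41, others 0.868 to 0.935), Hmmr (1.77, others 1.30 to 1.36), E2f8 (0.506, others 0.342 to 0.348), Stard4 (3.51, others 2.02 to 2.10) and Mns1 (0.504, others 0.407 to 0.417). Without that array 0 mitosis genes were called, and the count was also 0 without NM-203 replicate 2 or 4 or without water replicate 3 or 4. NM-203 replicate 3 was high for Tmem158 (2.50) and Adamts1 (94.0) and low for Zmat3 (3.25, others 7.70 to 9.06). NM-203 replicate 4 was low for Car13 (1.81), and NM-203 replicate 2 had 63.7% of probes well above background against 60.4% to 60.6% on the others.

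Among the water arrays, replicate 3 was high for Ebf1 (2.51, others 1.84 to 1.93), Itgam (22.3, others 16.9 to 17.1) and the dim Olfr1367 (0.0151) and Vmn1r27 (0.0139), and low for Ckap5 (3.79) and Bnip3 (6.91). Water replicate 1 was high for Kif4 (0.242, others 0.155 to 0.158) and low for Anapc11 (23.1) and Hsp90ab1 (135). Water replicate 2 was low for Nlrp2 (0.0364), and replicate 4 was high for Nlrp1b (0.0307).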

How the results depend on the processing

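The called genes kept their direction under every alternative in which they were tested, except for 3 values: ENSMUST00000120916 at -0.066 with DMSO as the control, and Ddah1 at 0.075 and Kif20b at -0.048 with the Min-U-Sil 5 water arrays as the control, where the fibroblast marker median also turned, to 0.046. The count of calls (28, with 10 mitosis genes higher) was far less stable, and the cause was not tested where a setting does not itself change the arrays or genes used. It was 0 (0 mitosis genes) with the 8 arrays alone, 100 (32) with slide as a fixed block, 103 (26) with slide as a random block, 29 with scan day, and 10, 17 and 0 (0 in each) within slides 1, 2 and 3. It was 21 (4) with quantile normalization, 1 (0) with arrays centred on the median, 16 (3) with the deposited value table, 52 with a filter on these 2 groups, 5 (0) with no filter, 15 (2) with the mean of probes, and 292 (60) with array weights. It was 252 (45) with DMSO, 7164 (21) with the Min-U-Sil 5 water and 400 (41) with the 3 control groups averaged. Leaving out a replicate gave 2 to 101 calls and 0 to 29 mitosis genes. Same-numbered replicates did not deviate together (r of 0.153, -0.037, -0.196 and 0.061), so the numbers were not taken as pairs. Between NM-203 and water arrays on the same slide, r was 0.153, 0.088, 0.405 and 0.063, and the main fit left slide out. A replicate block gave 33 calls over 36 arrays and 0 (0) over the 8 arrays. For 2 against 1 µg/cm² the 4922 calls became 1406 with slide, 780 with scan day and 1506 with median centring. For 2 µg/cm² against water, in alternatives added after seeing the data, the 8125 calls became 2328 with slide and 1716 with scan day as a block. The counts for 5 µg/cm² against 1 µg/cm² and against water stayed within 1.5 times, and DE against 1 µg/cm² gave 1 call in each setting run. Of the list medians, 939 moved by less than the spread between replicates and 96 by more. Dim probes such as Ackr4, Ucma and Rgs8 lay near the background, which limits their folds.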

Other observations

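Near the threshold, 8 named genes had a limma adjusted p of 0.0503. Besides Ccnb2 and Scarb2, they included Sapcd2, with 1.84 to 2.96 in NM-203 cells and 1.29 to 1.65 in water, and Mns1, with 0.407 to 0.504 in NM-203 cells and 0.280 to 0.350 in water. Oas1g, a further oligoadenylate synthetase, had 1.23, 1.11, 1.14 and 1.04 in NM-203 cells, against 0.878, 0.838, 0.390 and 0.484 in water. Ube2l6, the conjugating enzyme for the ubiquitin-like ISG15, had 3.39, 3.94, 3.42 and 3.75, against 2.88, 2.73, 2.46 and 2.04 in water. Both lay above all water arrays, and Isg15 itself overlapped, with 84.3 to 105 in NM-203 cells and 53.3 to 87.2 in water. Ptger1, a prostaglandin E2 receptor, was lower, with 0.0667 to 0.118 in NM-203 cells and 0.158 to 0.219 in water, and so was the slow troponin gene Tnnt1, with 0.603 to 0.739 in NM-203 cells and 0.950 to 1.25 in water.

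The 10 largest uncalled differences among genes with an unadjusted p under 0.05 were all in dim probes with 0 arrays well above background in NM-203, in water or in both. They included Olfr1367, Vmn1r27, Olfr1130 and Olfr304 of the olfactory and vomeronasal receptor families, with adjusted p of 0.337 to 0.791 in limma.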
